A study of Homo sapiens with 12 samples.

Results

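The retinoid metabolism and binding genes, 8 genes whose proteins convert, bind or break down retinoids, were followed through RNA-sequencing of the leukemia cell line MOLM-13. They were CYP26A1, CYP26B1, DHRS3, RDH11, RDH10, DHRS9, RETSAT and CRABP2, taken by symbol from the deposited table, with all transcript entries of a symbol summed. They make up 8 of the 46639 symbols in the table. MOLM-13 is a human acute myeloid leukemia (AML) line with an MLL-AF9 fusion, and all cells grew in medium with serum. Whether the medium also held GM-CSF, a myeloid growth factor, is uncertain, since the methods name only serum and antibiotics as supplements.

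The 12 libraries fell into 4 groups of 3. Cells were untreated, received decitabine (DAC, an inhibitor of DNA methyltransferases) at 100 nM, received all-trans retinoic acid (ATRA, the ligand of the retinoic acid receptors) at 1 µM, or received both agents (DAC+ATRA) at these doses. DAC was given as daily pulses, and the methods place ATRA together with the last pulse, whereas the labels read as if ATRA had been present throughout. The labels give 96 h for untreated and 72 h for the treated libraries, while the design text names 72 h for the harvest, so time and treatment cannot be told apart if the labels hold. None of the libraries analysed here is labelled as a vehicle control. The 3 libraries of a group are taken as technical replicates of 1 experiment in 1 cell line, and p-values therefore measure only the spread between these libraries.

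Values are normalised counts, that is, reads divided by the size factor of each library. The DAC libraries had 4.67 to 6.95 M reads (M, mega), the DAC+ATRA libraries 5.61 to 7.16 M, the ATRA libraries 8.36 to 10.7 M and the untreated libraries 8.95 to 11.9 M. Of 10 myeloid and MOLM-13 markers, 9 had at least 10 normalised counts in every library, and CSF2RA was listed at 0 throughout. That listing does not show that CSF2RA RNA was absent from the cells, and its cause was not tested. Of 11 markers of other cell types, 7 stayed at 3 reads or fewer in every library. The summed level of the myeloid list was 183200 to 224600 normalised counts in DAC, 22560 to 27960 in ATRA, 68300 to 72920 with both agents and 71060 to 79870 in untreated cells. LYZ, the lysozyme of myeloid cells, had means of 41628 in untreated and 6819 in ATRA, and MPO, a granule peroxidase, had means of 1513 in untreated and 22033 in DAC. The list did not move as 1. In ATRA, the means of CD33 (549 against 372 in untreated), SPI1 (403 against 341) and MEIS1 (612 against 255) were higher. Those of LYZ, MPO, CEBPA, FLT3, HOXA9 and FCGR1A were lower. In DAC, the means of LYZ, MPO, CD33, SPI1 and FCGR1A were higher than in untreated, and those of CEBPA, FLT3 and HOXA9 were lower. MEIS1 had means of 254 in DAC and 255 in untreated. The other list summed to 5580 to 6213 in DAC, 1511 to 1626 in ATRA, 1846 to 2234 with both agents and 3634 to 4606 in untreated cells. Most of that was PECAM1, an adhesion molecule of endothelium and monocytes, which had means of 1443 in ATRA and 4123 in untreated cells. NCAM1, of neural and natural killer cells, was lower in ATRA (mean 1.75 against 7.10), whereas COL1A1, a collagen of stromal cells, was higher (79.0 against 8.03), and MS4A1 and ALB were at 0 throughout. The part of these markers in the results was not tested. Fewer cells of a type and less RNA per cell cannot be told apart in such bulk samples.

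Retinol is oxidized to retinaldehyde by short-chain and alcohol dehydrogenases, and retinaldehyde is oxidized further to retinoic acid. Retinoic acid binds receptors that dimerize with RXR and sit on repeated hexamers in DNA, and many genes that respond encode enzymes which remove retinoic acid or its precursors. CYP26 hydroxylases break down retinoic acid itself, whereas DHRS3 and RDH11 reduce retinaldehyde back to retinol.

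The promoter of CYP26A1 is shown because its retinoic acid response element is a textbook example of this repeat. Windows from RefSeq (GRCh38.p14), which run from 250 bases before to 50 bases after each annotated start, were searched on both strands for 2 hexamers in direct repeat. Each hexamer could be AGGTCA, or one of its forms AGTTCA, then also GGGTCA, and likewise GGTTCA. With a spacing of 5 bases, such a repeat was found in 31 of 35116 windows (0.088%), and with a spacing of 2 bases in 14 windows (0.04%). Among the windows of the 8 genes and of the other retinoid pathway genes described further on, 1 held a match, that of CYP26A1 with spacing 5. The repeat lies 73 bases before the start of transcript ENST00000224356 and within the first exon, in the 5′ UTR, of the longer ENST00000371531. The stretch at chr10:93073798-93073824 (GRCh38.p14) is printed from the minus strand, with the half-sites in capitals.
CYP26A1: caattAGTTCAcccaaAGTTCAtcttt
RefSeq gives 3 starts for DHRS3. The 250 bases upstream of the outermost, at chr1:12618211-12618460 on the minus strand, are shown because this start is that of the deposited transcript, and they held 0 of these half-sites. The windows upstream of the other starts, at chr1:12616790-12617039 and chr1:12596614-12596863, held 1 half-site each. Of the bases shown 65.2% were G or C, and 72 overlapped an exon of a long non-coding RNA, ENSG00000288927. A half-site was present in 33.8% of all such windows of 250 bases. A match is a description of the letters, and its absence says nothing about binding elsewhere.
DHRS3: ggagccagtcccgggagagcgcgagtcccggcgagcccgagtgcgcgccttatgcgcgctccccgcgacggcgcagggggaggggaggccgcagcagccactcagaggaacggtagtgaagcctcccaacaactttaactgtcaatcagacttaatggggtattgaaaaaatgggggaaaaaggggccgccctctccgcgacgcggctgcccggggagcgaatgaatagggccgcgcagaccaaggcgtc

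Of the 8 genes, 6 passed the filter, which asked for 10 or more normalised counts in 3 or more libraries, and entered a test over 10642 genes. A gene was called when its adjusted p in limma was under 0.01. CYP26B1 and CRABP2 did not pass. CYP26A1 had no read in untreated or DAC cells, so it passed only through the groups with ATRA.

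**Figure D1:**
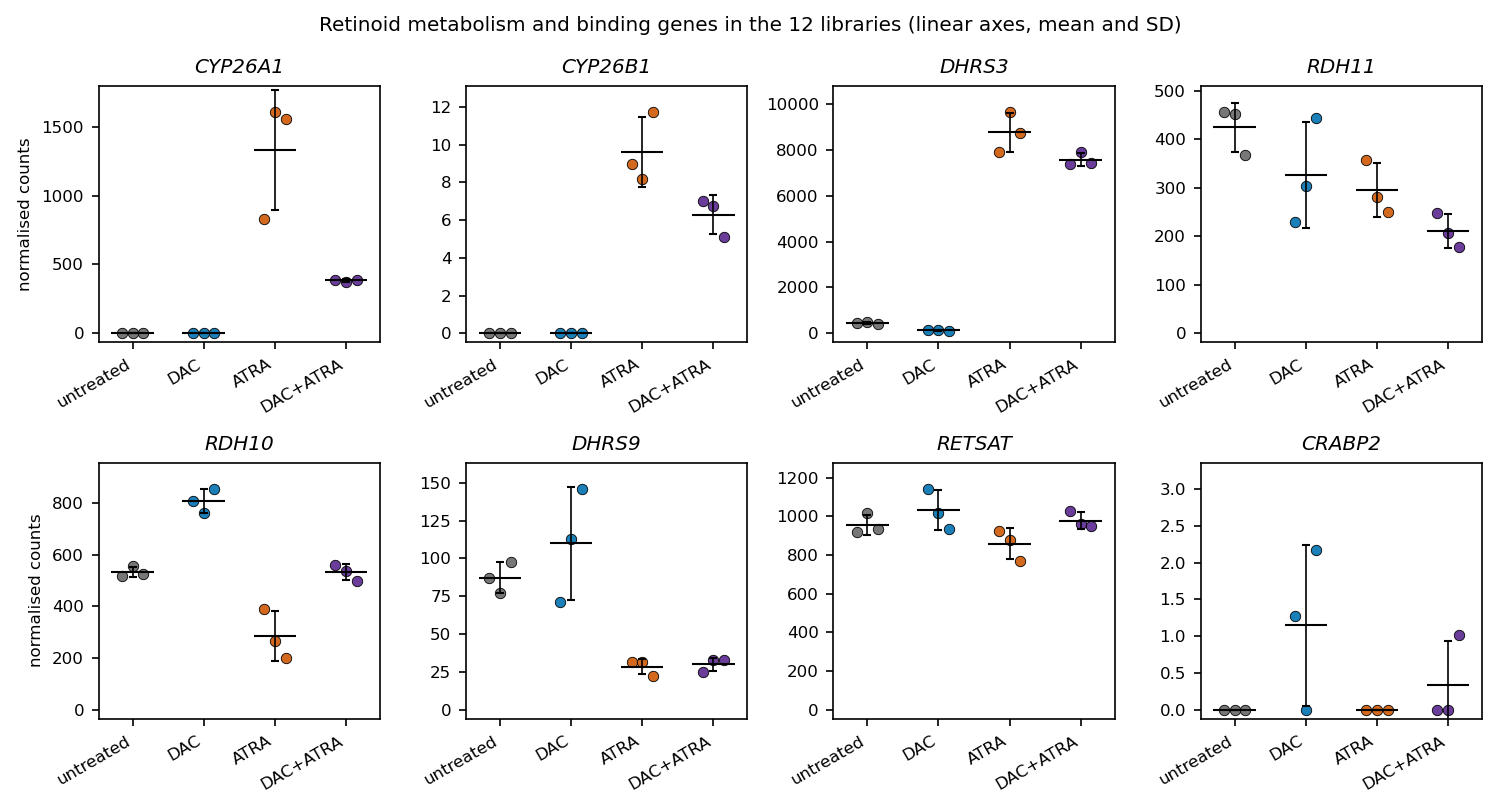
Normalised counts of the 8 genes in the 12 libraries, 1 panel per gene with its own linear axis from 0. Points are libraries, wide bars the group means and whiskers the SD. CYP26A1 and CYP26B1 are at 0 without ATRA, DHRS3 rises from 404 to 510 in untreated to 7925 to 9630 in ATRA, and RETSAT stays between 769 and 1141 throughout.

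CYP26A1, the main hydroxylase of retinoic acid (chr10:93073475-93077885, plus strand), was listed at 0 normalised counts in all 3 untreated and all 3 DAC libraries. The ATRA libraries held 829, 1604 and 1559 normalised counts, and the DAC+ATRA libraries 386, 375 and 390. The ATRA and DAC+ATRA libraries did not overlap, and ATRA replicate 1 was the lowest of its group. Against a floor of 3 reads per library, CYP26A1 was at least 546-fold higher in ATRA than in untreated cells (adjusted p = 1.78e-15). For DAC+ATRA against untreated the bound was at least 158-fold higher (adjusted p = 3.13e-14). Against DAC, DAC+ATRA was at least 81.6-fold higher (adjusted p = 3.9e-14). Since CYP26A1 passed the filter only through the groups with ATRA, these p-values are descriptions.

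CYP26A1 fell in DAC+ATRA relative to ATRA by 1.73 ± 0.29 on the log2 scale (SE; adjusted p = 2.79e-04), with means of 384 ± 7.94 and 1331 ± 435 normalised counts (SD, n = 3). With a pseudocount of 0.1 the adjusted p of this difference was 0.0123, which does not pass. Nearly all reads lay on ENST00000224356, which held 99.2% of the gene's normalised counts with ATRA and 99.1% with both agents. The repeat shown above lies in the first exon that sets the other transcript apart, and that transcript held 0.795% and 0.904%. These are percentages of the listed counts. ENST00000224356 has 232 exonic bases that no other listed row covers, and the other transcript has 360.

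CYP26B1 (chr2:72129238-72147862, minus strand), a second hydroxylase of retinoic acid, was also found only in libraries with ATRA. It was listed at 0 in all untreated and DAC libraries, at 8.96, 8.19 and 11.7 normalised counts in the ATRA libraries and at 7.0, 6.75 and 5.11 in the DAC+ATRA libraries. The ATRA group lay at least 3.95-fold above the floor of the untreated group and the DAC+ATRA group at least 2.58-fold. In a fit without the filter, the adjusted p was 3.33e-06 for ATRA and 2.36e-05 for DAC+ATRA. CYP26B1 held 35 reads in ATRA and 16 in DAC+ATRA, and DAC+ATRA against ATRA was not called (adjusted p = 0.432).

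DHRS3 (chr1:12567910-12618210, minus strand), which returns retinaldehyde to retinol, responded to both agents. Untreated libraries held 447, 510 and 404 normalised counts, and DAC libraries held 159, 130 and 86.0. ATRA libraries held 7925, 9630 and 8728, and DAC+ATRA libraries held 7385, 7897 and 7429. All untreated libraries lay above all DAC libraries, and every library with ATRA lay far above every library without it.

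DHRS3 fell by 1.89 ± 0.16 (log2, SE) in DAC, which is 3.70-fold (adjusted p = 1.82e-07). It rose by 4.27 ± 0.16 in ATRA (19.3-fold, adjusted p = 9.84e-14) and by 4.06 ± 0.16 in DAC+ATRA (16.7-fold, adjusted p = 2.66e-13). Measured from DAC, the combination rose by 5.95 ± 0.16, or 61.9-fold (adjusted p = 1.09e-15). The 2 ATRA groups did not overlap, but their difference of -0.21 (95% interval -0.54 to 0.13) was not called (adjusted p = 0.403).

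The 2 single changes of DHRS3 add up to 2.38 on the log2 scale, and the change measured in DAC+ATRA was 4.06. This excess, the interaction of DAC and ATRA, was 1.68 ± 0.23 (95% interval 1.21 to 2.16, adjusted p = 1.86e-04). DHRS3 was the only member called for it, and over all genes tested 1.6% were called, 0.724% above and 0.874% below the sum. A low DHRS3 level in DAC and a level in DAC+ATRA close to that in ATRA are both part of this value. The interaction of CYP26A1 was -1.73 (adjusted p = 0.0219) and was not called, though it passed with a pseudocount of 5 (adjusted p = 0.00276). Since DAC and untreated are both at 0, it repeats the difference between DAC+ATRA and ATRA.

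**Figure D2:**
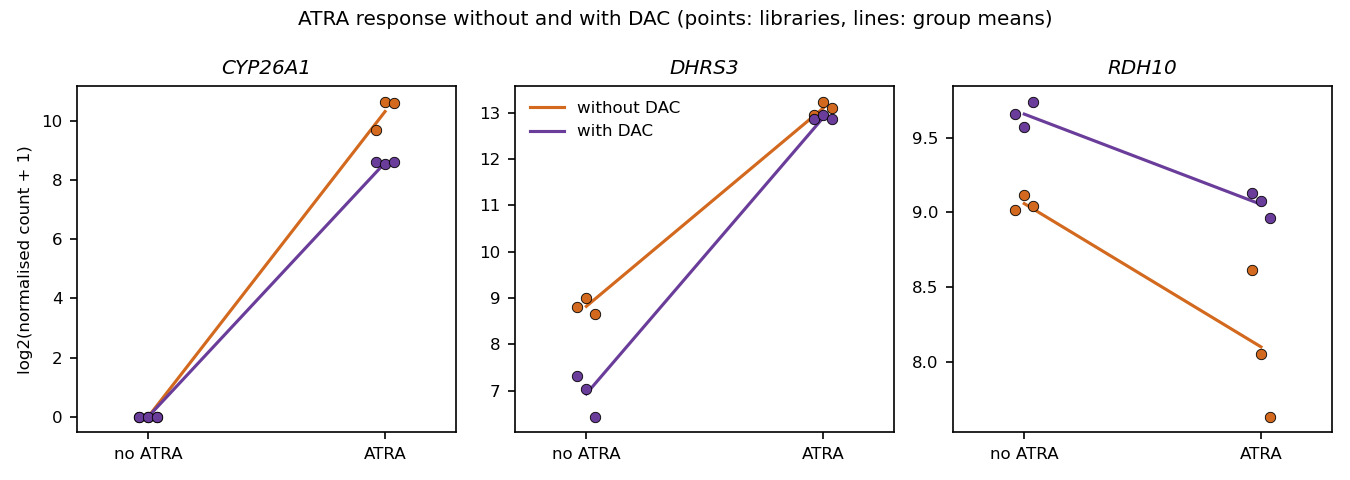
Levels of CYP26A1, DHRS3 and RDH10 as log2(normalised count + 1) without and with ATRA, in cells without DAC (orange) and with DAC (purple). Points are libraries and lines join group means, on axes that differ between panels and, for DHRS3 and RDH10, do not start at 0. The DHRS3 lines start apart and nearly meet, with a DAC+ATRA minus ATRA difference of -0.21, the CYP26A1 lines start together at 0 and part, with -1.73, and both RDH10 lines slope down.

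RDH10 (chr8:73294602-73325281, plus strand) oxidizes retinol to retinaldehyde, the step that limits the supply of retinoic acid in the embryo. Untreated libraries held 518, 554 and 526 normalised counts, and DAC libraries held 807, 761 and 853. ATRA libraries held 391, 266 and 198, and DAC+ATRA libraries held 558, 538 and 497. The ATRA group lay below and the DAC group above all other libraries, while the untreated and DAC+ATRA libraries overlapped.

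RDH10 fell by 0.96 ± 0.17 (log2, SE) in ATRA against untreated cells (adjusted p = 1.63e-04) and was higher in DAC+ATRA than in ATRA by 0.95 ± 0.17 (adjusted p = 4.48e-04). The difference between DAC+ATRA and untreated was -0.00 (log2) with a 95% interval of -0.36 to 0.35. DAC alone gave 0.60 ± 0.17 (adjusted p = 0.0207), which was not called here, but was called without ATRA replicate 1 (adjusted p = 0.0023), without ATRA replicate 3 (0.00479), by DESeq2 on the recovered reads (0.00591) and in a fit of the compared groups alone (0.00782). DAC+ATRA against DAC gave -0.60 (adjusted p = 0.0111), and this too was called without ATRA replicate 1 (9.5e-04) or replicate 3 (0.00207), by DESeq2 (0.00345) and edgeR (0.00567), with a pseudocount of 5 (0.00914) and in a fit of the compared groups alone (0.00229). The interaction was 0.35 (95% interval -0.15 to 0.86, adjusted p = 0.547).

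DHRS9 (chr2:169064789-169096167, plus strand), a short-chain dehydrogenase that can oxidize retinol, held 87.1, 77.1 and 97.9 normalised counts in untreated and 71.2, 113 and 146 in DAC libraries. It held 31.4, 31.3 and 22.6 in ATRA and 25.2, 32.6 and 32.7 in DAC+ATRA. All libraries with ATRA lay below all libraries without it. DHRS9 fell by 1.60 ± 0.26 (log2, SE) in ATRA (3.02-fold, adjusted p = 6.41e-05), by 1.51 ± 0.26 in DAC+ATRA (2.84-fold, adjusted p = 1.17e-04). Against DAC, it fell by 1.78 ± 0.26 in DAC+ATRA (3.44-fold, adjusted p = 2.76e-05). DAC alone gave 0.28 (95% interval -0.27 to 0.82, adjusted p = 0.528), with overlapping libraries.

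The transcript rows of DHRS9 did not fall alike. The tests of single transcript rows were added after seeing the data and covered 15040 rows, of which 19.5% were called for ATRA against untreated. ENST00000602501, ENST00000436483 and ENST00000428522 fell by 1.95, 1.75 and 2.38 (log2) in ATRA (adjusted p = 4.18e-04, 0.00153 and 0.00457). ENST00000357546, which starts at chr2:169067035 and has 103 exonic bases that no other listed row covers, held 12.4, 5.68 and 8.78 normalised counts in untreated and 11.6, 8.93 and 7.52 in ATRA. These libraries overlapped, and the difference was 0.09 (95% interval -0.82 to 1.01, adjusted p = 0.903).

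ENST00000357546 therefore took a mean of 33.0% of the gene's normalised counts with ATRA (28.6% to 37.1%) and 35.1% with both agents, against 10.2% in untreated (7.37% to 14.3%) and 14.2% in DAC. A test of each transcript against the other rows of its gene (diffSplice in limma, 8223 rows) called it for ATRA, with a change 2.12 (log2) above the other rows (adjusted p = 0.00243), and for DAC+ATRA, with 2.04 (adjusted p = 0.00249). Over all rows tested, 0.766% and 1.4% were called. Against DAC, the combination gave 1.5 (adjusted p = 0.0562), which was not called. The row rests on 29 reads in the DAC+ATRA group, 34 in ATRA, 36 in DAC and 37 in untreated. ENST00000602501, ENST00000436483, ENST00000357546 and ENST00000428522 have 1333, 287, 103 and 56 exonic bases that no other listed row covers. The listed rows without reads have no such base. The percentages therefore describe the listed counts and not the share of each transcript in the cells.

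**Figure D3:**
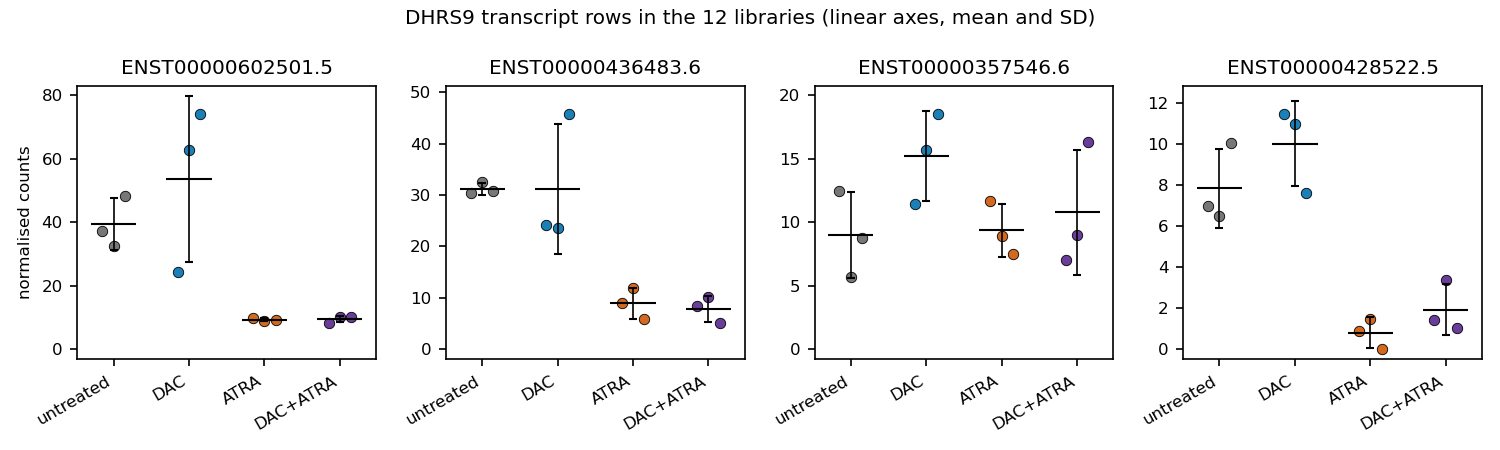
Normalised counts of the 4 DHRS9 transcript rows with reads in the 12 libraries, each on its own linear axis from 0. Points are libraries, wide bars the group means and whiskers the SD. In ENST00000357546 the ATRA libraries lie among the untreated libraries, whereas in the other 3 rows every ATRA library lies below every untreated one.

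RDH11 (chr14:67676800-67695793, minus strand), a reductase of retinaldehyde, held 455, 452 and 366 normalised counts in untreated and 230, 303 and 444 in DAC libraries. It held 357, 281 and 249 in ATRA and 248, 206 and 179 in DAC+ATRA. The DAC+ATRA and ATRA libraries lay below every untreated library, and DAC replicate 3 lay far above the other 2 DAC libraries. RDH11 fell by 1.01 ± 0.20 (log2, SE) in DAC+ATRA against untreated (2.02-fold, adjusted p = 4.64e-04).

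No other comparison called RDH11. ATRA gave -0.53 (adjusted p = 0.045) and DAC gave -0.43 (adjusted p = 0.166). Without DAC replicate 3, DAC gave -0.68 (adjusted p = 0.00717) and ATRA kept its difference of -0.53 with an adjusted p of 0.0087, so both were called. DAC+ATRA against DAC gave -0.59 (adjusted p = 0.0341), and -0.81 without DAC replicate 1 (adjusted p = 0.00406). DAC+ATRA against ATRA gave -0.48 (95% interval -0.90 to -0.06, adjusted p = 0.0966).

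RETSAT (chr2:85341955-85354531, minus strand), which saturates a double bond of retinol, was not called in any comparison. Its libraries held between 769 and 1141 normalised counts. The lowest group mean was 858 ± 80.6 in ATRA and the highest 1032 ± 103 in DAC (SD, n = 3). The largest difference was 0.19 (log2) in DAC+ATRA against ATRA, with a 95% interval of -0.04 to 0.42.

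CRABP2 (chr1:156699606-156705816, minus strand), which carries retinoic acid to its receptors in the nucleus, held 0 reads in all untreated and ATRA libraries, 3 reads over the DAC group and 1 over the DAC+ATRA group. All groups were at the floor of 3 reads per library, and no difference was detectable at this depth. Its 3 transcript rows have 49, 69 and 0 exonic bases that no other row covers. Reads that fit several rows of a gene appear to be missing from the table. Among symbols with at least 100 reads, 81.2% of the rows without a base of their own were at 0 reads, against 4.51% of the rows with such bases. Levels of the members with several listed rows (CRABP2, CYP26B1, CYP26A1, RDH11, RDH10 and DHRS9) are therefore lower limits, and levels are not compared between genes.

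**Figure D4:**
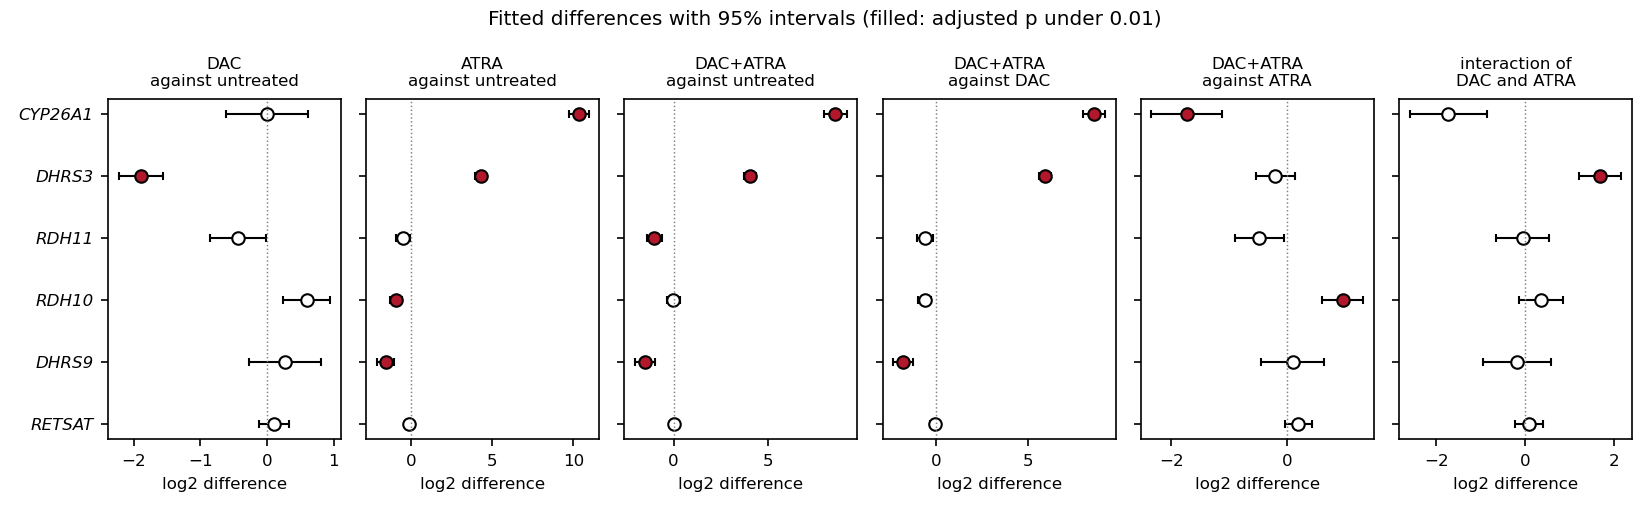
Fitted log2 differences of the 6 genes tested in the 6 comparisons, with 95% intervals, on horizontal axes that differ between panels. Filled points have a limma adjusted p under 0.01. CYP26A1 and DHRS3 lie far to the right wherever ATRA was added, DHRS9 lies to the left there, and RETSAT lies near 0 in every panel.

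Among the 6 genes tested, ATRA called 4, with 2 higher (CYP26A1, DHRS3) and 2 lower (RDH10, DHRS9). Over all genes tested 26.0% were called, 12.1% higher and 14.0% lower. The median difference was -0.34 (log2) over the 6 genes and -0.04 over all genes. DAC+ATRA also called 4, with 2 higher (CYP26A1, DHRS3) and 2 lower (RDH11, DHRS9), against 28.9% of all genes (14.5% higher, 14.4% lower) and medians of 0.01 and -0.00. Both comparisons use the same untreated libraries. CYP26A1 entered the test only through the groups with ATRA, so the counts over the 6 genes, here and for DAC+ATRA against DAC, are descriptions.

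DAC called DHRS3 alone among the 6, against 7.97% of all genes (4.29% higher, 3.67% lower). The count was 2 without DAC replicate 3, where RDH11 was added, and 2 without ATRA replicate 1 or 3, where RDH10 was added. DAC+ATRA against DAC called 3 (CYP26A1 and DHRS3 higher, DHRS9 lower), against 18.8% of all genes (9.04% higher, 9.74% lower). DAC+ATRA against ATRA called 2 (RDH10 higher, CYP26A1 lower), against 11.9% of all genes (6.47% higher, 5.46% lower).

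A list of 46 other retinoid pathway genes was read in the same fit, and 19 passed the filter. CYP26C1, ADH1B, ADH1C and BCO2 reached 10 normalised counts in no library without ATRA, so they entered the test only through the groups with ATRA, and the counts over the 19 genes are descriptions. ATRA called 6 of them, 3 higher and 3 lower, beside 26.0% of all genes, with a median of -0.02 (log2) over the 19 genes and -0.04 over all genes. DAC called 2, both higher, beside 7.97% of all genes, and DAC+ATRA called 6, 4 higher and 2 lower, beside 28.9%. DAC+ATRA against DAC called 5 (3 higher, 2 lower), beside 18.8%, and DAC+ATRA against ATRA called 3 (all higher), beside 11.9%. The interaction called 0 in limma, beside 1.6%, where CES1, ALDH1A3 and FABP5 had an unadjusted p under 0.05. None of the 4 other short-chain oxidoreductases tested (RDH5, RDH14, DHRS4 and DHRS4L2) was called for any treatment against untreated.

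CYP26C1, the neighbour of CYP26A1 on chr10:93060798-93069540 and also a hydroxylase of retinoic acid, held 2.33, 0 and 0 normalised counts in untreated and 0, 1.57 and 0 in DAC libraries. It held 17.0, 58.0 and 56.0 in ATRA and 18.2, 38.3 and 38.8 in DAC+ATRA. Replicate 1 was the lowest in both ATRA groups. Having passed the filter only through these groups, CYP26C1 was at least 17.9-fold higher in ATRA than in untreated cells (adjusted p = 6.51e-06), and the bound for DAC+ATRA was at least 13.0-fold higher (adjusted p = 1.64e-05). DAC+ATRA against ATRA was -0.34 (95% interval -1.65 to 0.98, adjusted p = 0.748).

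The alcohol dehydrogenases ADH1B and ADH1C, which can oxidize retinol, were at or under the floor without ATRA and likewise entered the test only through the groups with it. ADH1C held 136, 142 and 174 normalised counts in the ATRA libraries and 225, 189 and 159 in the DAC+ATRA libraries, at least 61.9-fold and 78.5-fold above the untreated floor (adjusted p = 4.48e-11 and 2.47e-11). ADH1B held 15.0 to 20.8 in ATRA and 16.9 to 21.0 in DAC+ATRA (adjusted p = 2.14e-06 and 1.98e-06). ADH1A, ADH1B and ADH1C are near-identical copies, and how reads were split between them is uncertain.

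ALDH1A3, a dehydrogenase that makes retinoic acid, was the only 1 of 4 retinaldehyde dehydrogenases that passed the filter. It held 28.8, 41.4 and 20.7 normalised counts in untreated and 31.8, 22.0 and 29.4 in DAC libraries. The ATRA libraries held 0.896, 2.23 and 0 and the DAC+ATRA libraries 2.80, 6.75 and 11.2. ALDH1A3 was at least 11.3-fold lower in ATRA than in untreated (adjusted p = 3.48e-06), and fell by 2.08 (log2) in DAC+ATRA (adjusted p = 0.00297). The second call was lost without untreated replicate 1 (adjusted p = 0.0124) or 2 (0.0249), without DAC+ATRA replicate 1 (0.0207) and with a pseudocount of 0.1 (0.0485). With both agents ALDH1A3 lay at least 2.58-fold higher than with ATRA (adjusted p = 0.00975), but this call was lost in 18 of 22 alternatives, among them DESeq2 (0.0122), edgeR (0.0189), no filter (0.0207) and most fits that left out 1 library (up to 0.0643 without DAC+ATRA replicate 3). With 1 transcript row per symbol, this difference was 0.82 (log2, adjusted p = 0.388). The libraries of these groups did not overlap in any of the 3 comparisons. For DAC+ATRA against ATRA this rests on few reads, which were 1, 3 and 0 in ATRA and 2, 6 and 11 in DAC+ATRA. The highest ATRA library thus held more reads than DAC+ATRA replicate 1, which was itself under the floor of 3 reads.

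CES1, an esterase that can hydrolyse retinyl esters, rose by 0.85 (log2) in DAC (adjusted p = 1.58e-04) and fell by 1.03 in ATRA (adjusted p = 3.85e-06) and by 0.72 in DAC+ATRA (adjusted p = 2.09e-04). FABP5, a fatty acid binding protein that also binds retinoic acid, fell by 1.39 in ATRA (adjusted p = 4.06e-05) and was higher in DAC+ATRA than in ATRA by 1.08 (adjusted p = 0.00127, but 0.0128 without ATRA replicate 2 and 0.0115 without replicate 3), while DAC+ATRA against untreated was -0.31 (adjusted p = 0.275). AKR1B1, a reductase of retinaldehyde and sugars, rose by 0.58 in DAC (adjusted p = 0.00816) and by 0.69 in DAC+ATRA against ATRA (adjusted p = 0.00145, but 0.0119 without ATRA replicate 3). The AKR1B1 call in DAC was lost in 12 of 23 alternatives, among them no filter (0.0111), scaling by total count (0.0143) and leaving out DAC replicate 2 (0.0504). AKR1C3, an aldo-keto reductase, rose by 1.52 in DAC+ATRA against untreated (adjusted p = 0.00209, but 0.0125 without DAC+ATRA replicate 1 and 0.0194 without replicate 3).

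**Figure D5:**
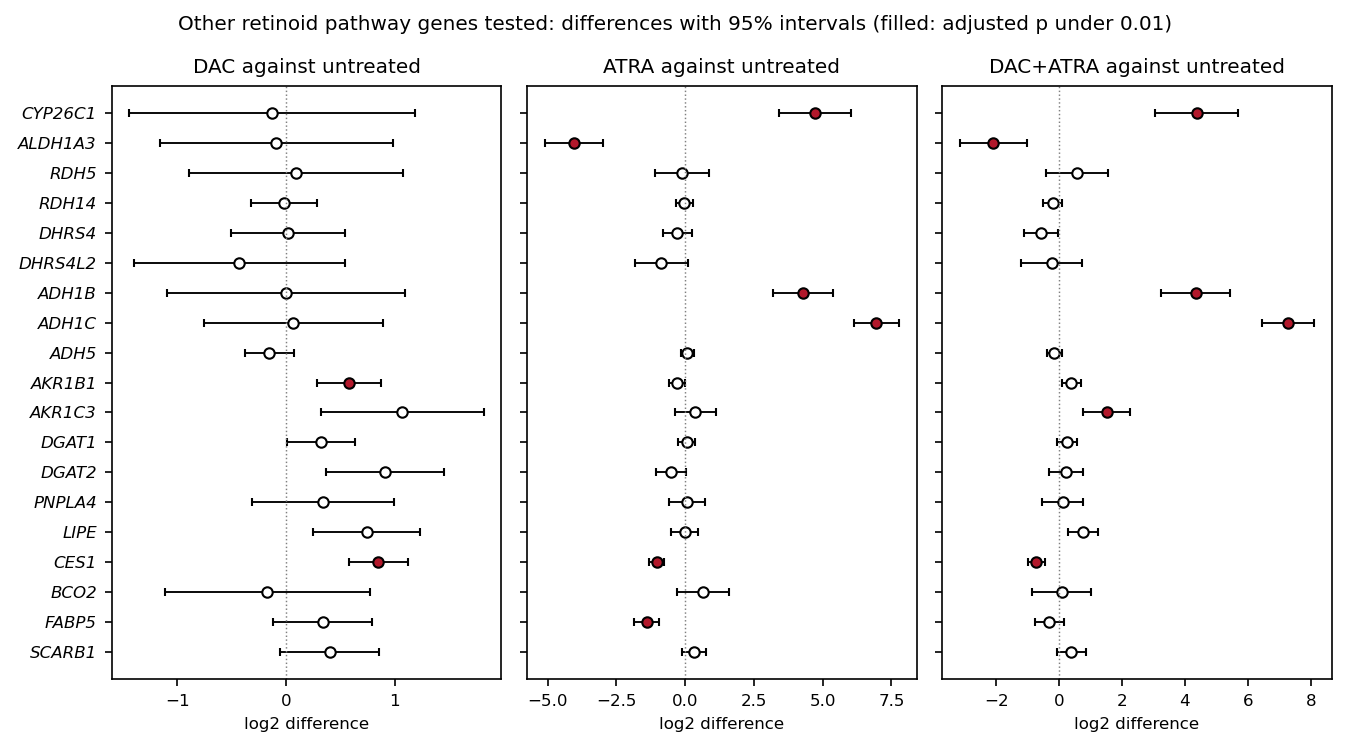
Log2 differences of the 19 other retinoid pathway genes tested, for each treatment against untreated, with 95% intervals and horizontal axes that differ between panels. Filled points have a limma adjusted p under 0.01. ADH1C, CYP26C1 and ADH1B lie furthest to the right in both panels with ATRA, and ALDH1A3 lies furthest to the left.

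The single library left out mattered for the pathway list. DAC called 4 of the 19 genes without DAC replicate 3, and 1 without any 1 of the untreated libraries, the other DAC libraries, ATRA replicate 2 or any DAC+ATRA library, AKR1B1 being the gene that dropped out. DAC+ATRA against ATRA called 0 without ATRA replicate 3. The interaction called FABP5 without ATRA replicate 1 (adjusted p = 0.0098).

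For each tested gene, the genes with the closest course over the 12 libraries were found by the mean absolute difference of centred log2 values. CYP26A1 was followed most closely by EXOC3L2 (0.66) and TGM2 (0.84), against a median of 4.74 over all other genes. DHRS3 was followed by ARL14EPL (0.45) and SLC2A5 (0.45), with a median of 2.56. DHRS9 lay closest to FAM114A1 (0.19) and FBXO43 (0.20), RDH10 to FEN1 (0.05) and SLC25A15 (0.07), RDH11 to NUP54 (0.06) and LRRC40 (0.08), and RETSAT to SLC31A1 (0.04) and PYURF (0.05). All points share libraries and normalisation, and the distance of a gene that varies little is small for many genes. CYP26A1 was at 0 in every library without ATRA and high in every library with it. Genes with a like step therefore lie close to it and most others far, and its median reflects this range.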

How the data were processed

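Strand-specific libraries depleted of ribosomal RNA were sequenced in pairs. The submitters' processing notes name FastQC, STAR, HTSeq, DESeq2 and hg38, without versions. The deposited values are a normalised signal: the authors divided the read counts of 100502 transcript entries by 1 size factor per library. After division by the value of 1 read, 100% of the values in each library were whole (within 0.01 reads). The annotation release is not given in the sources used here, and 88.9% of the entries matched GENCODE 44 (GRCh38), which gave positions. Columns named CTRL were taken as untreated.

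Entries were summed per symbol. Protein-coding genes that reached 10 normalised counts in 3 or more libraries entered limma 3.58.1 (trend, R 4.3.3) on log2(normalised count + 1), with all 12 libraries in 1 fit. On this scale the fold change of low genes is understated. P-values were adjusted by Benjamini-Hochberg over the 10642 genes of each comparison. The interaction is the change in DAC+ATRA minus the sum of both single changes. The count tests of edgeR and DESeq2 served as alternatives because the deposited table is normalised. Precision follows depth, 4.67 to 11.9 M reads (M, mega) per library, and floors of 3 reads cover counting error only.

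The settings varied were the tool (edgeR 4.0.16, DESeq2 1.42.0, both on reads recovered from the table), scaling by total count, the filter, pseudocount and threshold, fits of the compared groups alone, a replicate block, and leaving out each library. The fit was tested on simulated data. The members and lists were chosen with earlier results of these data known. Named genes were the 8 members, every listed pathway gene called for a treatment against untreated, and the 2 nearest genes of each tested member. Promoter windows came from RefSeq. RDH10 sequence was not used here.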

Additional observations from a re-analysis of the deposited data

Results flagged for a closer look

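The response of DHRS3 to ATRA differed between cells with and without DAC. It was 5.95 (log2) with DAC and 4.27 without, and the interaction term was 1.68 (limma, adjusted p = 1.86e-04). The starting level was lower in DAC (mean 125) than in untreated cells (454). The level reached was not higher with DAC, with means of 7571 in DAC+ATRA and 8761 in ATRA. That difference was -0.21 (log2) and was not called (limma, adjusted p = 0.403). With 3 libraries per group, single samples were checked only by leaving out each library in turn. The interaction kept its call under all 24 alternatives, which include these fits (1.44 to 1.88).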

How the results depend on the processing

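Of 864 member values recomputed under 24 alternatives, 835 kept their direction and side of the threshold, 19 passed it newly, 1 no longer passed and 9 reversed, all of these uncalled. DHRS3 kept its call in DAC under all 24 (-2.08 to -1.64) and for the interaction (1.44 to 1.88). At an adjusted p under 0.05, the members called were 2 for DAC, 5 for DAC+ATRA against DAC and 2 for the interaction, and the pathway genes 5 for DAC and 5 for DAC+ATRA against ATRA. The members called for DAC were 2 by DESeq2 and 2 with only the compared groups. A pseudocount of 0.1 left 1 member for DAC+ATRA against ATRA, and a pseudocount of 5 gave 2 for the interaction. Pathway genes called for DAC were 1 with total-count scaling, 1 with no filter and 1 with only the compared groups, and for DAC+ATRA against DAC 3 with the minimum of 30 normalised counts. Leaving out 1 library gave 1 to 2 members and 1 to 4 pathway genes for DAC, 0 to 4 pathway genes for DAC+ATRA against ATRA and 0 to 1 for the interaction. Leaving out 1 library also reversed some uncalled log2 values. For DAC+ATRA against untreated, RDH10 ran from -0.042 to 0.042 (above 0 without untreated replicate 2 and without DAC+ATRA replicate 3) and RETSAT from -0.005 (without DAC+ATRA replicate 1) to 0.075. For DAC+ATRA against ATRA, DHRS9 ran from -0.061 (without ATRA replicate 3) to 0.211. For the interaction, RDH11 ran from -0.279 to 0.193 (above 0 without untreated replicate 3, DAC replicate 3, ATRA replicate 1 or DAC+ATRA replicate 3) and DHRS9 from -0.466 to 0.046 (above 0 without DAC replicate 3). The causes were not tested. Replicate numbers did not pair the libraries (same-number deviations correlated at -0.26 to 0.11 over 18 pairs, different numbers at -0.16 to 0.25). With the replicate block, the members called were 4 for each of ATRA and DAC+ATRA against untreated and 1 for DAC, and the pathway genes for DAC+ATRA against ATRA were 2. Over all genes, DAC called 848, with 1205 by DESeq2, 953 by edgeR and 371 with only the compared groups. When 1 library was left out, DAC called 508 to 1385. The 1385 came without DAC replicate 3, and no other library left out gave more than 875. The interaction called 170, with 323 by DESeq2, 196 by edgeR and 106 to 262 without 1 library, the 262 again without DAC replicate 3. Depth limits CYP26B1 (35 reads in ATRA, 16 in DAC+ATRA) and CRABP2 (3 in DAC, 1 in DAC+ATRA).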
